A study of Homo sapiens with 24 samples.

Results

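The genes described here are 41 genes of glycolysis and of the cellular response to low oxygen. They were chosen by name as glycolytic enzymes, glucose and lactate transporters and targets of the hypoxia-inducible factors (HIF), together with 2 HIF subunits and 2 oxygen sensors. All 41 were among the 35993 gene symbols of the deposited count table. RNA was sequenced from J82 and RT-112, 2 established human bladder cancer cell lines. Each line contributed 4 groups of 3 biological replicates, 24 libraries in all: parental cells and 3 further lines named CD44v6, CD44 High and CD44 Low. The receptor CD44 sits at the cell surface, and CD44v6 stands for its isoforms with the variant exon of that name. Per the labels, CD44 Low lines have low and CD44 High lines high levels of the receptor, CD44v6 lines have high CD44v6, and the parental cells are the controls. How these lines were derived, and whether each is 1 clone, is not given in the sources used here. The labels name no drug, oxygen level or genotype for any group.

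Glycolysis breaks glucose down to pyruvate in the cytosol. Glucose enters through SLC2A transporters, is trapped by hexokinases, is committed to the pathway by phosphofructokinase, and yields pyruvate that lactate dehydrogenase can turn into lactate for export by SLC16A transporters. HIF is a transcription factor whose alpha subunits, HIF1A and EPAS1, are marked for destruction by the EGLN prolyl hydroxylases while oxygen is present. When oxygen falls the subunits persist and switch on genes of glucose use, lactate export, pH control, blood vessel growth and collagen modification. Because this control acts on the protein, the transcript level of a HIF subunit is not a reading of HIF activity.

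Libraries held 16752825 to 24419670 counts, and 18891 to 20555 genes had at least 1 count. The 41 genes took 1.049% to 1.294% of the counts of a library, and GAPDH, ENO1 and PKM together made up 48.04% to 56.24% of that share. For CD44 itself, the log2 fold change of CD44 High over CD44 Low was 1.39 in J82 and 1.61 in RT-112. Over parental RT-112 it was -1.20 in CD44 Low (adjusted p = 0.00123 by edgeR), 0.41 in CD44 High (0.272) and 0.46 in CD44v6 (0.163). Over parental J82 it was -0.68 (0.0329), 0.71 (0.0355) and 0.85 (0.0214) in the same order. Of 16 urothelial and epithelial markers, 14 or 15 reached a level of at least 1 CPM (counts scaled to a common library total) in every library of each RT-112 group, but 6 or 7 in the J82 groups. KRT5, KRT13, KRT20, UPK2 and UPK3A were at 0 in all J82 libraries, and UPK3A was at 0 in RT-112 too. The summed blood cell markers stayed at or under 1.67 CPM. The summed epithelial markers also differed between CD44 Low and CD44 High. They were at 6473 to 7880 against 8758 to 10643 CPM in J82, and at 18202 to 20891 against 13895 to 15583 CPM in RT-112. In J82 the 9 mesenchymal markers summed to 1552 to 1930 CPM in CD44 Low and 1298 to 1473 CPM in CD44 High, and in RT-112 to 224 to 279 CPM and 129 to 192 CPM. The part of these shifts in the results below was not tested, and in bulk RNA a changed mix of cells and a changed level per cell cannot be told apart.

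In the comparison of CD44 High with CD44 Low, the collagen-modifying enzymes P4HA2 and PLOD2 and several glycolytic enzymes rose in J82, while NDRG1, HK2 and PFKM fell. In RT-112 the enzymes ENO1 and LDHA rose, and HIF1A, EPAS1, EGLN1 and PFKFB3 fell. Genes were called at an adjusted p under 0.05 over all genes tested. Rises and falls here are relative to CD44 Low, which itself differed from parental cells for some of these genes, as given below. In J82, 11 of the 39 members tested were called, 8 higher and 3 lower, which is 28.2% against 15.7% of all genes tested (8.83% higher and 6.9% lower). The count fell to 7 without replicate 1 or replicate 2 of CD44 High. In RT-112, 6 of 37 were called, 2 higher and 4 lower, which is 16.2% against 16.0% of all genes (9.01% higher and 7.02% lower), a share near the background. It was 4 to 8 with 1 library left out. The median log2 fold change of the members was 0.092 in J82 and -0.053 in RT-112, where the medians of all genes were -0.016 and 0.016. Of the 36 members tested in both lines, 0 were called in both by edgeR or DESeq2. Of the 14237 genes tested in both, edgeR called 550 (3.86%) in both, so a count of 0 among 36 members is near the background. Simulated counts with the same spread show what such calls can miss. With a true log2 change of 0.5, the fit called 18.5% of the changed genes in J82 and 17.6% in RT-112, and with a true change of 1, 71.2% and 63.6%. The simulation changed only 63 to 68 genes at each size, whereas 2508 genes were called in J82 and 2507 in RT-112. With fewer changed genes the adjusted threshold is stricter, so these shares may be too low for the data. A member that was not called may still differ, but how often was not shown.

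**Figure D1:**
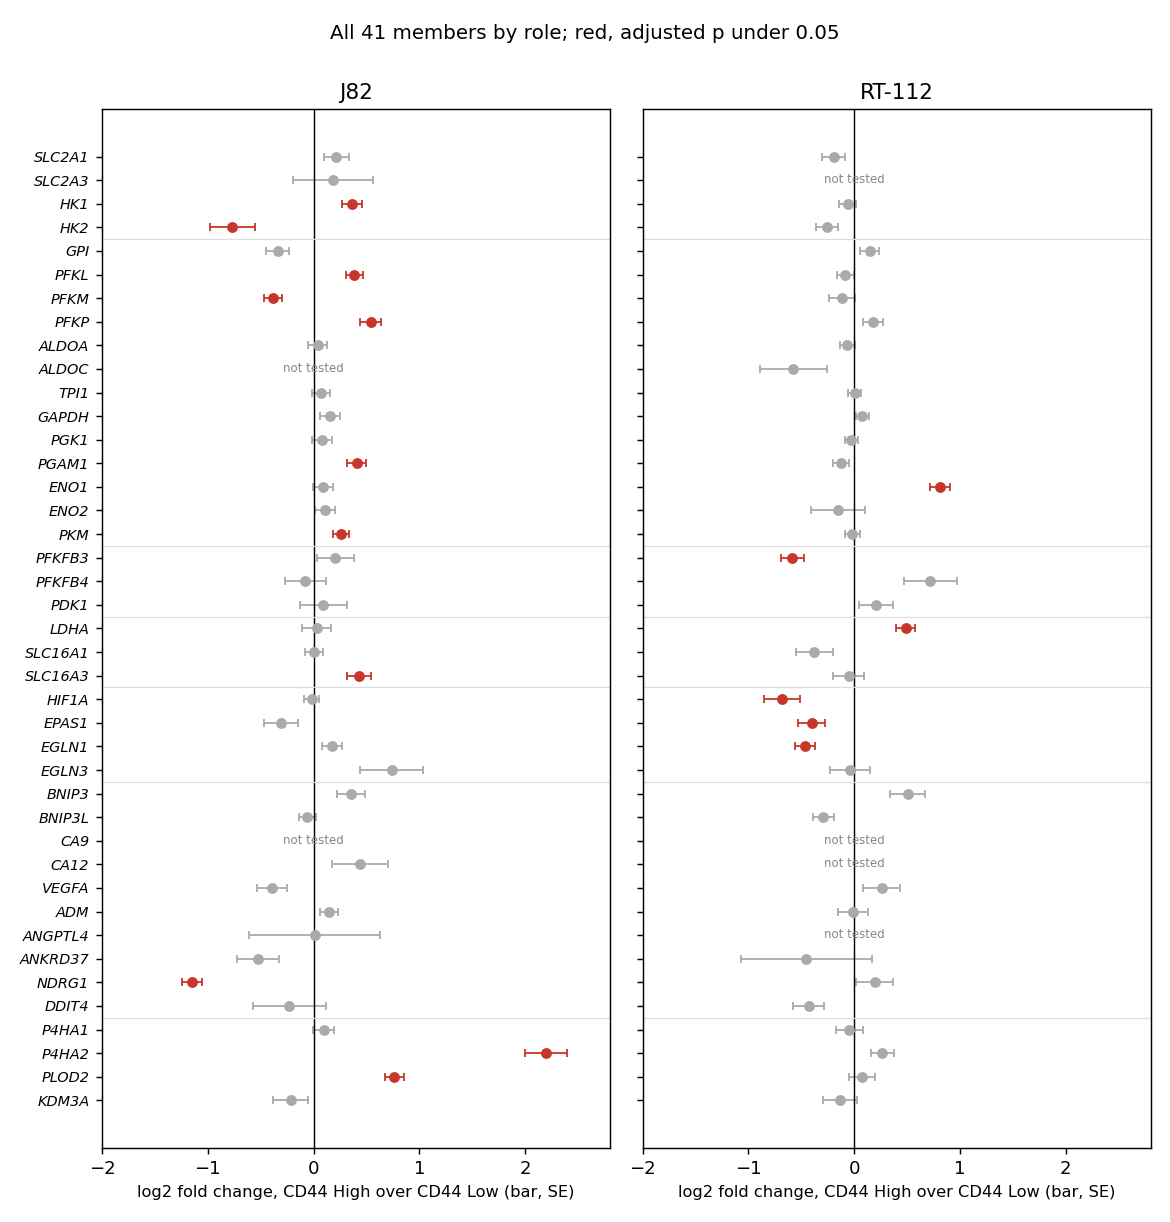
Log2 fold change of all 41 members in CD44 High over CD44 Low, in J82 (left) and RT-112 (right), in order of role from glucose entry to collagen and chromatin enzymes; points are estimates, bars standard errors, and red marks an adjusted p under 0.05. The 11 red points in J82 and the 6 in RT-112 belong to different genes, and P4HA2 in J82 lies farthest from 0 at 2.20.

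At the entry of glucose in J82, the 2 hexokinases moved in opposite directions. HK1, the ubiquitous hexokinase, was at 168, 138 and 142 CPM in the 3 CD44 Low libraries and at 191, 194 and 188 CPM in CD44 High. HK2, the hexokinase known as a HIF target, was at 23.4, 23.1 and 19.2 CPM in CD44 Low and at 10.6, 11.7 and 16.1 CPM in CD44 High. The libraries of the 2 groups did not overlap for either gene. They also did not overlap for some members that were not called, such as GPI, BNIP3 and ADM. A lack of overlap, here and below, describes the values and adds no support to a call. Its share over all genes was not computed. The log2 fold change was 0.36 (SE 0.10, adjusted p = 0.0217) for HK1 and -0.77 (SE 0.21, adjusted p = 0.0268) for HK2. Each call was lost in 4 of the 6 fits that left out 1 library: HK1 without replicate 2 or 3 of CD44 Low or 1 or 2 of CD44 High (adjusted p up to 0.0761), and HK2 without replicate 1 or 2 of either group (up to 0.111). The log2 ratio of HK2 to HK1 was -2.74 ± 0.164 (SD, n = 3) in CD44 Low, -3.33 ± 0.042 in parental cells and -3.87 ± 0.324 in CD44 High. The transporters SLC2A1 and SLC2A3 were not called, at 0.21 (adjusted p = 0.244) and 0.18 (adjusted p = 0.792).

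Phosphofructokinase is built from 3 kinds of subunit, PFKL, PFKM and PFKP, named after liver, muscle and platelets, and all 3 were called in J82. PFKP was at 261, 299.6 and 252 CPM in CD44 Low and 403, 412 and 359 CPM in CD44 High. PFKL was at 52.2, 55.3 and 54.8 CPM in CD44 Low and 73.9, 69.1 and 68 CPM in CD44 High. PFKM, in contrast, was at 112, 128 and 110.1 CPM in CD44 Low and 92.8, 86.4 and 88.4 CPM in CD44 High. For each subunit every CD44 High library lay on the same side of all CD44 Low libraries. PFKP and PFKL were higher in CD44 High, by 0.54 (SE 0.10, adjusted p = 0.00231) and 0.38 (SE 0.08, adjusted p = 0.00522), and PFKM fell by 0.38 (SE 0.08, adjusted p = 0.00755). All 3 calls held whichever of the 6 libraries was left out. The log2 ratio of PFKP to PFKM moved from 1.21 ± 0.018 (SD, n = 3) in CD44 Low to 2.13 ± 0.116 in CD44 High, with parental cells between them at 1.77 ± 0.093. Ratios were not tested. PFKM overlaps SENP1 on the other strand, which had 680 to 926 counts per J82 library, and whether counting used strand is not given in the sources used here.

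**Figure D2:**
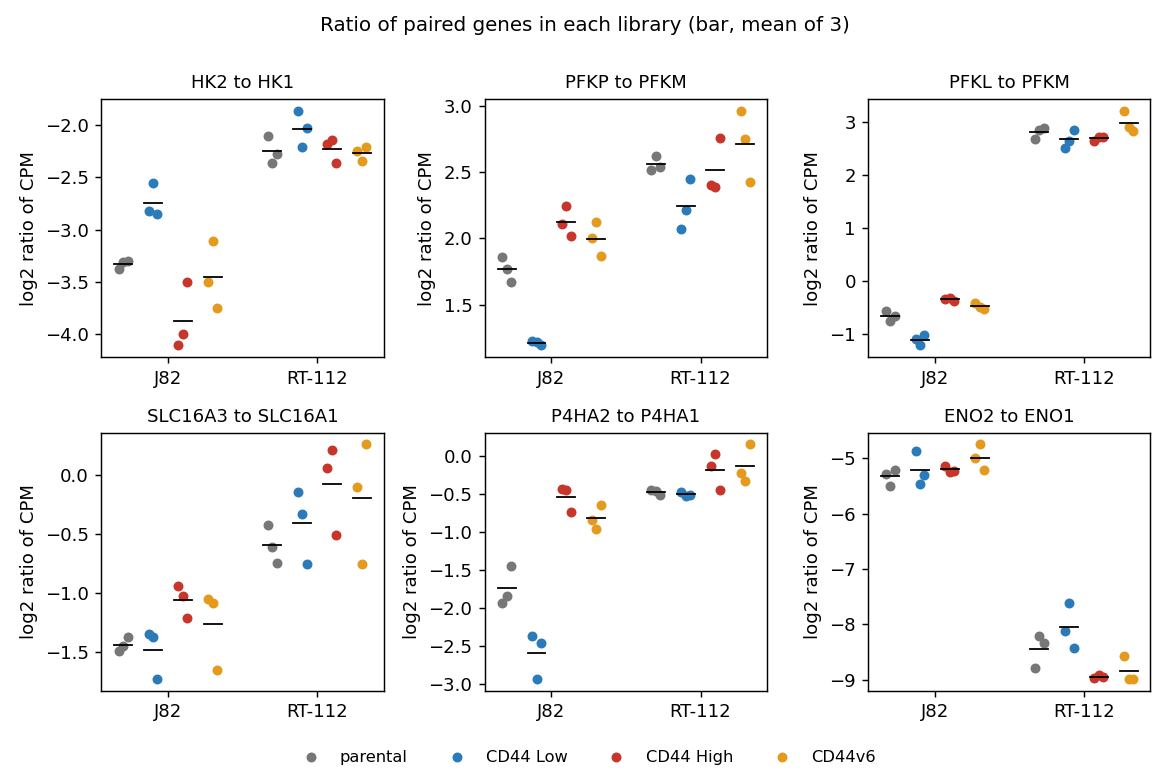
Log2 ratio of the CPM of 2 related genes in each library, by line and group; points are libraries, the bar is the mean of 3. In J82, the CD44 Low libraries lie below all CD44 High libraries for PFKP to PFKM, PFKL to PFKM and P4HA2 to P4HA1, and above them for HK2 to HK1; the ratio of PFKL to PFKM is near 2.8 in parental RT-112 and -0.65 in parental J82.

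Further down the pathway in J82, 2 of the other enzymes tested were higher in CD44 High. PGAM1, the phosphoglycerate mutase, was at 134, 157 and 159.5 CPM in CD44 Low and at 194, 208 and 192 CPM in CD44 High. PKM, the pyruvate kinase that makes the pyruvate at the end of glycolysis, was at 1819, 1810.2 and 1907 CPM in CD44 Low and at 2117, 2385 and 2094 CPM in CD44 High. The groups did not overlap for either gene, and the changes were 0.41 (SE 0.09, adjusted p = 0.00807) and 0.26 (SE 0.07, adjusted p = 0.0332). Parental libraries were at 190.4 to 208 CPM for PGAM1 and 1990 to 2234 CPM for PKM. For both genes they overlapped CD44 High and lay above CD44 Low. PGAM1 kept its call in all 6 fits that left out 1 library, whereas PKM lost it without replicate 1 or 2 of either group (adjusted p up to 0.139), without a filter on low counts and in the fit on the 2 groups alone. PGAM1 has 13 pseudogenes named in GENCODE and a near-identical retrogene, PGAM4, listed at 93 to 198 counts per J82 library, so its count is uncertain. GPI, ALDOA, TPI1, GAPDH, PGK1, ENO1 and ENO2 were not called by edgeR, with changes from -0.34 (GPI) to 0.16 (GAPDH). GPI, the isomerase that follows hexokinase, was called lower by DESeq2 (adjusted p = 0.0255), in the fit with the replicate number as a block (0.0259) and in the fit on the 2 groups alone (0.0408).

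Among the lactate genes of J82, SLC16A3, the lactate exporter of glycolytic cells, was at 68.3, 69.6 and 59.7 CPM in CD44 Low and 91.7, 93.8 and 79.7 CPM in CD44 High. All CD44 High libraries were above all CD44 Low libraries, with a change of 0.43 (SE 0.12, adjusted p = 0.0238). The call was lost without replicate 3 of CD44 Low or replicate 1 or 2 of CD44 High (adjusted p up to 0.0872), and SLC16A3 overlaps CSNK1D on the other strand (580 to 825 counts per J82 library). LDHA, which turns pyruvate into lactate, changed by 0.03 (adjusted p = 0.92), and the transporter SLC16A1 by 0.00 (adjusted p = 0.984), so neither was called. The 3 regulators PFKFB3, PFKFB4 and PDK1 were also not called, with changes between -0.08 and 0.21.

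HIF1A, the oxygen-regulated subunit of HIF, was at 416, 409 and 439 CPM in J82 CD44 Low and 402, 427 and 415 CPM in CD44 High, and the groups overlapped (-0.02 (adjusted p = 0.907)). EPAS1, EGLN1 and EGLN3 were likewise not called in J82 (0 of the 4 subunits and sensors by edgeR or DESeq2, with 1, EGLN3, at an unadjusted p under 0.05). Among the 9 HIF targets tested in the group of mitophagy, pH, secretion and stress genes, edgeR called 1. NDRG1, a differentiation and stress gene, was at 145, 155 and 166 CPM in CD44 Low and at 64.1, 72.8 and 72.1 CPM in CD44 High. Parental J82 libraries lay between these groups, at 112, 118 and 107 CPM. No CD44 High library reached any CD44 Low library, and the change was -1.15 (SE 0.09, adjusted p = 4.07e-06), called in every fit that left out 1 library. The targets that were not called ranged from -0.53 (adjusted p = 0.0902) for ANKRD37 to 0.44 (adjusted p = 0.295) for CA12. The angiogenic factor VEGFA was at 62.4, 52.8 and 63.6 CPM in CD44 Low and 40.1, 40.2 and 55.2 CPM in CD44 High (-0.39 (adjusted p = 0.0799)). VEGFA was called lower by DESeq2 (adjusted p = 0.0463) and in the fit with the replicate block (0.0232).

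P4HA2 and PLOD2 modify collagen chains in the endoplasmic reticulum: P4HA2 is a catalytic subunit of prolyl hydroxylase and PLOD2 a lysyl hydroxylase. P4HA2 was at 7.97, 5.56 and 8.59 CPM in J82 CD44 Low and 34.2, 36 and 30.8 CPM in CD44 High. PLOD2 was at 240.4, 249 and 268 CPM in CD44 Low and 425, 458 and 395 CPM in CD44 High. The lowest CD44 High library stood above the highest CD44 Low library for both, and P4HA2 had the largest change of any member tested. The change was 2.20 (SE 0.20, adjusted p = 9.71e-06) for P4HA2 and 0.76 (SE 0.09, adjusted p = 9.45e-05) for PLOD2, and both calls held in all 6 fits that left out 1 library. The related subunit P4HA1 did not pass the test (0.10 (adjusted p = 0.576)), nor did the histone demethylase KDM3A (-0.22 (adjusted p = 0.417)). P4HA2 overlaps 3 genes on the other strand. Of these SLC22A4 had 17 to 88 counts per J82 library, PDLIM4 at most 2 and P4HA2-AS1 0.

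In RT-112 the calls in CD44 High against CD44 Low fell on other members. ENO1, the enolase of most tissues, was at 1075, 1043 and 1061 CPM in CD44 Low and 1958, 1834 and 1651 CPM in CD44 High. LDHA was at 534, 565 and 568 CPM in CD44 Low and 738, 689.8 and 852 CPM in CD44 High. Every CD44 High library was above every CD44 Low library for both genes. Parental cells lay between the groups for ENO1, at 1453 to 1503 CPM, whereas for LDHA they were at 609.7 to 706 CPM, above CD44 Low and overlapping CD44 High. ENO1 rose by 0.81 (SE 0.10, adjusted p = 0.00031) and LDHA by 0.49 (SE 0.09, adjusted p = 0.00411), and both calls held in the 6 fits that left out 1 library. The other 12 glycolytic enzymes tested were not called in RT-112.

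PFKFB3 makes the sugar bisphosphate that activates phosphofructokinase. It was at 59.1, 63.7 and 60.7 CPM in RT-112 CD44 Low and 37.1, 41.4 and 40.9 CPM in CD44 High, without overlap, and fell by 0.59 (SE 0.11, adjusted p = 0.00393). PFKFB4, its relative, was not called (0.72 (adjusted p = 0.0674)), nor was PDK1 (0.21 (adjusted p = 0.412)), the kinase that holds pyruvate back from the mitochondria.

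Of the 4 HIF subunits and oxygen sensors, 3 were lower in RT-112 CD44 High than in CD44 Low. HIF1A was at 1401, 1253 and 1372 CPM in CD44 Low and 789, 610.1 and 1045 CPM in CD44 High. EPAS1, the second HIF alpha subunit, was at 295, 303 and 345 CPM in CD44 Low and 193, 253 and 253 CPM in CD44 High. EGLN1, the main oxygen-sensing hydroxylase, was at 119.6, 97.8 and 101 CPM in CD44 Low and 70.1, 79.6 and 76.4 CPM in CD44 High. No CD44 High library reached the CD44 Low libraries for these 3 genes, but HIF1A in replicate 3 of CD44 High lay within the range of the parental libraries (1036 to 1064 CPM). For EGLN1 all CD44 High libraries lay within the parental range (67.7 to 81.2 CPM), and the CD44 Low libraries were above it. For EPAS1 the CD44 High libraries overlapped the parental libraries (236 to 293 CPM). The changes were -0.68 (SE 0.17, adjusted p = 0.0173) for HIF1A, -0.40 (SE 0.13, adjusted p = 0.0454) for EPAS1 and -0.46 (SE 0.09, adjusted p = 0.00652) for EGLN1. EGLN1 kept its call in all 6 fits that left out 1 library. HIF1A lost it without replicate 1 of CD44 Low or of CD44 High, with adjusted p up to 0.0594. EPAS1 lost it without any 1 of the CD44 Low libraries or replicate 1 of CD44 High (up to 0.172), in the fit with the replicate number as a block and in the fit on the 2 groups alone. EGLN3 did not pass (-0.04 (adjusted p = 0.916)). ENO1, LDHA and PFKFB3, called above, belong to other groups of members. In the group of mitophagy, pH, secretion and stress genes, none of the 7 HIF targets tested in RT-112 was called by edgeR. Their changes ran from -0.45 (ANKRD37) to 0.51 (BNIP3). Of them 3, BNIP3, BNIP3L and DDIT4, had an unadjusted p under 0.05. DESeq2 called BNIP3L (adjusted p = 0.0234) and DDIT4 (0.0267) lower, and BNIP3L was also called with median-of-ratios (0.0458) and upper-quartile scaling (0.0349). P4HA1, P4HA2, PLOD2 and KDM3A were not called by edgeR or DESeq2.

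The genes next to the called members were read as well. In RT-112, among the 20 tested genes nearest to ENO1 on chromosome 1 (10 on each side in RefSeq order), the median log2 fold change in CD44 High against CD44 Low was 0.31, 16 of 20 were above 0, and 5 were called, all higher. Around EGLN1 the median was -0.22, 17 of 20 were below 0, and 4 were called, all lower. In CD44v6 against CD44 Low the medians were 0.40 and -0.32, with 7 called higher around ENO1 and 6 called lower around EGLN1. In J82 the neighbours of ENO1 had a median of -0.003 and those of EGLN1 a median of -0.03 in CD44 High against CD44 Low, and the medians were 0.17 and -0.06 in CD44v6 against CD44 Low. Around LDHA, HIF1A, EPAS1 and PFKFB3 in RT-112 the medians were 0.04, -0.08, 0.03 and -0.02 in CD44 High against CD44 Low. In J82, the medians around the 11 called members ran from -0.16 (PGAM1) to 0.23 (HK1). Around HK1 on chromosome 10, 16 of 20 neighbours were above 0 and 5 were called, all higher, beside the change of 0.36 in HK1 itself. Around P4HA2 the median was 0.22, with 4 called higher, beside its own 2.20. The part of the neighbouring genes' shift in the changes of ENO1, EGLN1 and HK1 was not tested, and this comparison was chosen after the values were seen.

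**Figure D3:**
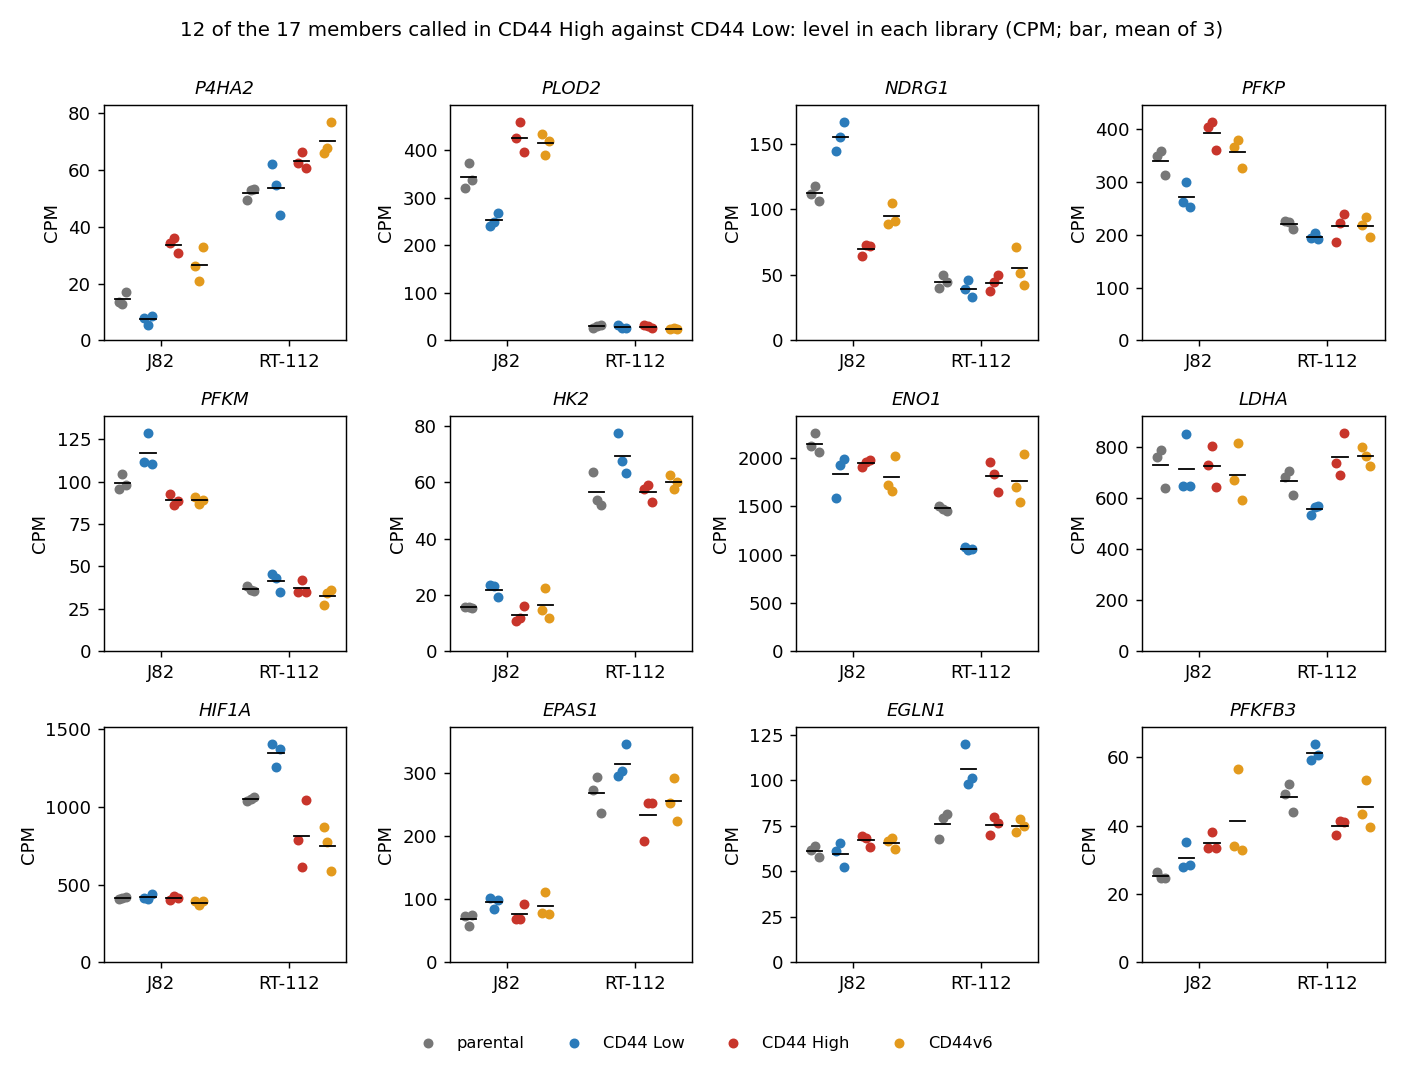
Level (CPM) of 12 of the 17 members called in CD44 High against CD44 Low in 1 of the lines, in each of the 24 libraries; points are libraries, bars means of 3. In J82 the CD44 Low (blue) and CD44 High (red) points of P4HA2, PLOD2, NDRG1, PFKP, PFKM and HK2 do not overlap, and in RT-112 those of ENO1, LDHA, HIF1A, EPAS1, EGLN1 and PFKFB3 do not.

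Promoter sequences of the 2 members with the largest called rises in each line, P4HA2 and PLOD2 in J82 and ENO1 and LDHA in RT-112, are given to show how much they differ in the core letters of the HIF recognition site. The sequences are the 250 bases before a RefSeq start in GRCh38.p14, read 5′ to 3′ on the strand of the gene. Capitals mark each match of ACGTG or GCGTG on either strand (CACGT and CACGC on the reverse strand). The P4HA2 window is chr5:132227092-132227341 on the minus strand, PLOD2 chr3:146161185-146161434 (minus), ENO1 chr1:8878687-8878936 (minus) and LDHA chr11:18394313-18394562 (plus). The P4HA2 start shown is not the outermost start of that gene, and LDHA has several starts, of which the first is shown.
P4HA2: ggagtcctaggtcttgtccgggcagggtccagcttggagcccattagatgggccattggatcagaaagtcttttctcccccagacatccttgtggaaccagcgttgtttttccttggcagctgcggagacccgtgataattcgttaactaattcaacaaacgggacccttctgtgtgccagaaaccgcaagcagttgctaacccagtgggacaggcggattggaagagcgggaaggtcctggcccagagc
PLOD2: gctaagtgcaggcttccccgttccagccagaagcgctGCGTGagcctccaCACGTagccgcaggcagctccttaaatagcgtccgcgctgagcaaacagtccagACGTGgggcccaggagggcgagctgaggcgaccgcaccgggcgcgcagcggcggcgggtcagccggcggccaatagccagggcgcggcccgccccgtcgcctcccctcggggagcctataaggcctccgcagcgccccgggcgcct
ENO1: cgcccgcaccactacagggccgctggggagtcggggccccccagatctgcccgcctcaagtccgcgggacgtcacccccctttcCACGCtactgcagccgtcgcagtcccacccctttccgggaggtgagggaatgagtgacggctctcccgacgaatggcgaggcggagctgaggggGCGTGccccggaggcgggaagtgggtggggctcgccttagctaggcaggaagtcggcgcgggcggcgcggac
LDHA: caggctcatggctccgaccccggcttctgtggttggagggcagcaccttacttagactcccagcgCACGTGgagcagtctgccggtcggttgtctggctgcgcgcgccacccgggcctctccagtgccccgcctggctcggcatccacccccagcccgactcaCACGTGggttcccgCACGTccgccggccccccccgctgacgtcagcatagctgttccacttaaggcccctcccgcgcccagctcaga
The P4HA2 window held 0 matches, PLOD2 3, ENO1 2 and LDHA 5. The LDHA matches include CACGTG, which reads the same on both strands, so that each copy counts as 2 overlapping matches. Over the members, 36 of 41 matched a symbol in the table, with 64 promoters. At least 1 match was found in 40 of the 64 (62.5%) and in 43.2% of all 35116 promoters of the same length, and CACGTG in 12.5% and 6.3%. A match describes the letters only. SLC2A3, SLC16A1, BNIP3L, VEGFA and NDRG1 were not in the promoter table.

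The CD44v6 lines were compared with the same CD44 Low libraries, so these values are not independent of those above. In J82, 6 members were called (4 higher, 2 lower; 15.4% of members against 9.58% of all genes, 6.18% higher and 3.4% lower). P4HA2, at 26.1, 21 and 32.7 CPM in CD44v6, rose by 1.86 (SE 0.20, adjusted p = 5.22e-05). PLOD2, at 433, 391 and 420.3 CPM, rose by 0.72 (SE 0.09, adjusted p = 0.000198), and PFKP, at 366, 379 and 325 CPM, by 0.40 (SE 0.10, adjusted p = 0.0192). EGLN3, an oxygen sensor that is itself a HIF target, was at 1.84, 1.46 and 2.58 CPM in CD44 Low and 3.59, 6.49 and 3.62 CPM in CD44v6, a rise of 1.22 (SE 0.30, adjusted p = 0.02). NDRG1, at 88.8, 105 and 91.2 CPM, fell by 0.70 (SE 0.09, adjusted p = 0.000339), and PFKM, at 90.9, 86.7 and 89 CPM, fell by 0.39 (SE 0.08, adjusted p = 0.00974). The CD44v6 and CD44 Low libraries did not overlap for any of the 6. P4HA2, PLOD2, NDRG1 and PFKM kept their calls in the 6 fits that left out 1 library, and PFKP and EGLN3 lost theirs in 3 each. PFKP did so without CD44 Low replicate 1 or 3 or CD44v6 replicate 1 (adjusted p up to 0.0643), and EGLN3 without CD44 Low replicate 1 or 2 or CD44v6 replicate 2 (up to 0.0778). In the fit on these 2 groups alone, P4HA2, PLOD2 and NDRG1 remained and the count was 3. DESeq2 also called GPI, PFKL and PGAM1, and the replicate block GPI, CA12 and VEGFA.

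In RT-112 CD44v6 against CD44 Low, 6 members were called (3 higher, 3 lower; 16.2% against 16.0% of all genes, 7.97% higher and 8.03% lower). ENO1, at 1697, 1539 and 2042 CPM in CD44v6, rose by 0.72 (SE 0.10, adjusted p = 0.000663), and LDHA, at 798, 764 and 725 CPM, by 0.45 (SE 0.09, adjusted p = 0.00734). P4HA2 was at 62.2, 54.9 and 44.1 CPM in CD44 Low and 66, 67.6 and 76.7 CPM in CD44v6, a rise of 0.38 (SE 0.11, adjusted p = 0.0352). HIF1A, at 870.3, 775 and 588 CPM, fell by 0.86 (SE 0.17, adjusted p = 0.00657). EGLN1, at 71.4, 78.6 and 74.9 CPM, fell by 0.51 (SE 0.09, adjusted p = 0.00445), and PFKFB3, at 43.2, 53.2 and 39.7 CPM, fell by 0.44 (SE 0.11, adjusted p = 0.018). The groups did not overlap for these 6 genes. P4HA2 was the only member called in both lines in this comparison (1 of 36, against 2.60% of all genes tested in both), but in RT-112 its call was lost without replicate 2 or 3 of either group (adjusted p up to 0.124), without a filter, with the replicate block and on the 2 groups alone. PFKFB3 lost its call without CD44 Low replicate 2 or CD44v6 replicate 1 or 3 (up to 0.0921), and the other 4 genes kept theirs. DESeq2 also called PFKFB4 (adjusted p = 0.0464).

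CD44v6 and CD44 High were set against each other to see whether the members separate the 2 lines with more receptor. No member was called in either line by edgeR, and neither was any other gene (0% of all genes in both). At an unadjusted p under 0.05 there were 2 members in J82 (5.13%, against 9.63% of all genes) and 3 in RT-112 (8.11% against 4.25%). DESeq2 called 1 member in J82, NDRG1, and 0 in RT-112. NDRG1 was at 64.1, 72.8 and 72.1 CPM in J82 CD44 High and 88.8, 105 and 91.2 CPM in CD44v6, without overlap (0.45 (SE 0.09, adjusted p = 0.201) by edgeR). In J82 the members' changes lay between -0.34 (P4HA2) and 0.48 (EGLN3).

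Whether a change differed between the lines was tested as the J82 change minus the RT-112 change over all 24 libraries. For CD44 High against CD44 Low, 10 of 40 members differed, against 10.7% of all genes (8 in the upward direction in J82, background 6.24%, and 2 in the downward, background 4.42%). Among the called members P4HA2 had the largest difference, 1.96 (SE 0.23, adjusted p = 7.59e-06). The RT-112 libraries were at 44.1 to 62.2 CPM in CD44 Low and 60.6 to 66.4 CPM in CD44 High, and the groups overlapped. NDRG1 differed by -1.31 (SE 0.21, adjusted p = 0.000372), with RT-112 at 33.5 to 45.8 CPM in CD44 Low and 37.9 to 50.0 CPM in CD44 High. PLOD2 differed by 0.71 (SE 0.15, adjusted p = 0.0041), and it was far lower in RT-112, at 25.3 to 33.3 CPM and 25.7 to 31.4 CPM. Among the enzymes, PGAM1 (0.56 (adjusted p = 0.00325)), PFKL (0.49 (adjusted p = 0.00615)) and HK1 (0.45 (adjusted p = 0.0211)) moved more upward in J82, and ENO1 (-0.69 (adjusted p = 0.00264)) more upward in RT-112. In RT-112 PGAM1 was at 301 to 327 and 253 to 303 CPM, PFKL at 254 to 274 and 220.1 to 279 CPM, and HK1 at 259 to 315 and 262 to 275 CPM, each with overlap. ENO1 in J82 was at 1588, 1924 and 1984 CPM in CD44 Low and 1899, 1954 and 1975 CPM in CD44 High, with overlap. EGLN1 (0.67 (adjusted p = 0.00334)), HIF1A (0.70 (adjusted p = 0.0218)) and PFKFB3 (0.82 (adjusted p = 0.0204)) fell in RT-112 and did not pass in J82. For LDHA, HK2, PFKM, PFKP, PKM, SLC16A3 and EPAS1, called in 1 line, no difference between the lines was called in the main fit. The differences ran from -0.48 (adjusted p = 0.221) for HK2 to 0.51 (adjusted p = 0.108) for SLC16A3. DESeq2 called 14 members, with PFKP, PKM, GPI and ALDOC added, and the replicate block 13, with LDHA, PFKP and GPI added.

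For CD44v6 against CD44 Low, 7 of 40 members differed between the lines (17.5% against 7.52% of all genes, of which 4.56% were upward and 2.96% downward in J82). These were P4HA2 (1.47 (adjusted p = 0.000302)), PLOD2 (0.92 (adjusted p = 0.000628)), PFKFB3 (0.86 (adjusted p = 0.0196)), HIF1A (0.72 (adjusted p = 0.0242)), EGLN1 (0.64 (adjusted p = 0.00623)), ENO1 (-0.76 (adjusted p = 0.00151)) and NDRG1 (-1.18 (adjusted p = 0.00131)). All 7 are among the 10 that differed in the comparison with CD44 High, which shares the CD44 Low libraries.

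Against parental cells fewer members were called. The 3 comparisons of a line share its parental libraries, whose replicates varied least (biological coefficient of variation 0.0749 in J82 and 0.0941 in RT-112, against 0.125 to 0.212). In J82 CD44 Low, 5 members were called (2 higher, 3 lower; 12.8% against 5.34% of all genes, 2.26% higher and 3.08% lower). P4HA2 was at 13.4, 12.8 and 17 CPM in parental cells and fell by 0.97 (SE 0.20, adjusted p = 0.0123). PLOD2, at 320.3, 373 and 337 CPM in parental cells, fell by 0.45 (SE 0.09, adjusted p = 0.0115), and PGAM1, at 194, 208 and 190.4 CPM, fell by 0.40 (SE 0.09, adjusted p = 0.0218). NDRG1 rose by 0.47 (SE 0.09, adjusted p = 0.0114), and VEGFA, from 36.9, 35.1 and 41.1 CPM in parental cells, rose by 0.66 (SE 0.14, adjusted p = 0.0195). The CD44 Low and parental libraries did not overlap for these 5 genes, but neither did they for many members without a call, such as SLC2A1, HK2, TPI1, ENO1 and PKM. Each call was lost in at least 1 of the 6 fits that left out 1 library: PGAM1 without any 1 parental library or CD44 Low replicate 1 (adjusted p up to 0.114), and VEGFA without parental replicate 1 or 2 or CD44 Low replicate 1 or 3 (up to 0.105). P4HA2 lost it without parental replicate 3 or CD44 Low replicate 2 (up to 0.0643), NDRG1 without parental replicate 1 or 3 (up to 0.0697), and PLOD2 without parental replicate 2 (0.0705).

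In J82 CD44 High against parental cells, 4 members were called (3 higher, 1 lower; 10.3% against 2.94% of all genes, 1.71% higher and 1.23% lower). P4HA2 rose by 1.23 (SE 0.19, adjusted p = 0.00396) and NDRG1 fell by 0.68 (SE 0.09, adjusted p = 0.00238), and both held in all 6 fits that left out 1 library. SLC2A1, the widespread glucose transporter, was at 30.6, 31.8 and 31.8 CPM in parental cells and 43.2, 41.5 and 47.3 CPM in CD44 High, a rise of 0.49 (SE 0.12, adjusted p = 0.0436) that was lost whichever library was left out (adjusted p up to 0.187). ADM, the vasodilator peptide adrenomedullin, was at 117, 124 and 138 CPM in parental cells and 158, 179 and 167 CPM in CD44 High, a rise of 0.41 (SE 0.08, adjusted p = 0.0194) that was lost without parental replicate 1 or 2 or CD44 High replicate 2 or 3 (up to 0.131). In J82 CD44v6, 2 members were called, both higher (5.13% against 2.60% of all genes, 1.86% higher). ADM, at 173, 178 and 167 CPM, rose by 0.45 (SE 0.08, adjusted p = 0.0171) and P4HA2 by 0.89 (SE 0.19, adjusted p = 0.0298). The ADM call was lost without parental replicate 1 or 2 (adjusted p up to 0.127) and the P4HA2 call without any 1 parental library or CD44v6 replicate 1 (up to 0.157), and both were lost in the fit on the 2 groups alone. The groups did not overlap for any of these genes.

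In RT-112 CD44 Low, 2 members were called against parental cells (1 higher, 1 lower; 5.41% against 3.20% of all genes, 1.33% higher and 1.87% lower). ENO1 was at 1503, 1471 and 1453 CPM in parental cells and fell by 0.51 (SE 0.10, adjusted p = 0.0145). EGLN1 was at 67.7, 79 and 81.2 CPM in parental cells and rose by 0.45 (SE 0.09, adjusted p = 0.0225). The CD44 Low libraries lay outside the parental range for both, but both calls were lost without parental replicate 1 or 2 or CD44 Low replicate 1, and that of ENO1 without CD44 Low replicate 2 as well (adjusted p up to 0.0638 for ENO1 and 0.112 for EGLN1). No member was called by edgeR in RT-112 CD44 High (0.511% of all genes) or CD44v6 (0.614%), where 7 of 37 members each had an unadjusted p under 0.05 (18.9%, against 12.3% and 15.3% of all genes). DESeq2 called 0 and 2 members there, the latter being ADM and P4HA2. In CD44v6 the fit on the 2 groups alone called ADM, HIF1A, P4HA2 and VEGFA. The difference between the lines in CD44 Low against parental cells was called for P4HA2 (-1.02 (adjusted p = 0.0291)) and PGAM1 (-0.49 (adjusted p = 0.0421)), 2 of 40 members against 1.06% of all genes (both downward in J82, background 0.757%), and each was lost in 10 of the 12 fits that left out 1 library. In CD44 High against parental cells the fit called 1 member, ALDOC (1 of 40 against 0.241% of all genes, 0.178% in this upward direction; adjusted p = 0.0448). ALDOC was at a count of 0 in parental J82 and at 0.430, 0.833 and 0.313 CPM in J82 CD44 High, and at 3.35, 2.71 and 3.11 and 1.70, 2.53 and 1.25 CPM in those groups of RT-112, and its call was lost in 9 of the 12 fits. ALDOC was too low for a test within J82 and entered this fit through the RT-112 libraries, so no difference between the lines is read from it.

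**Figure D4:**
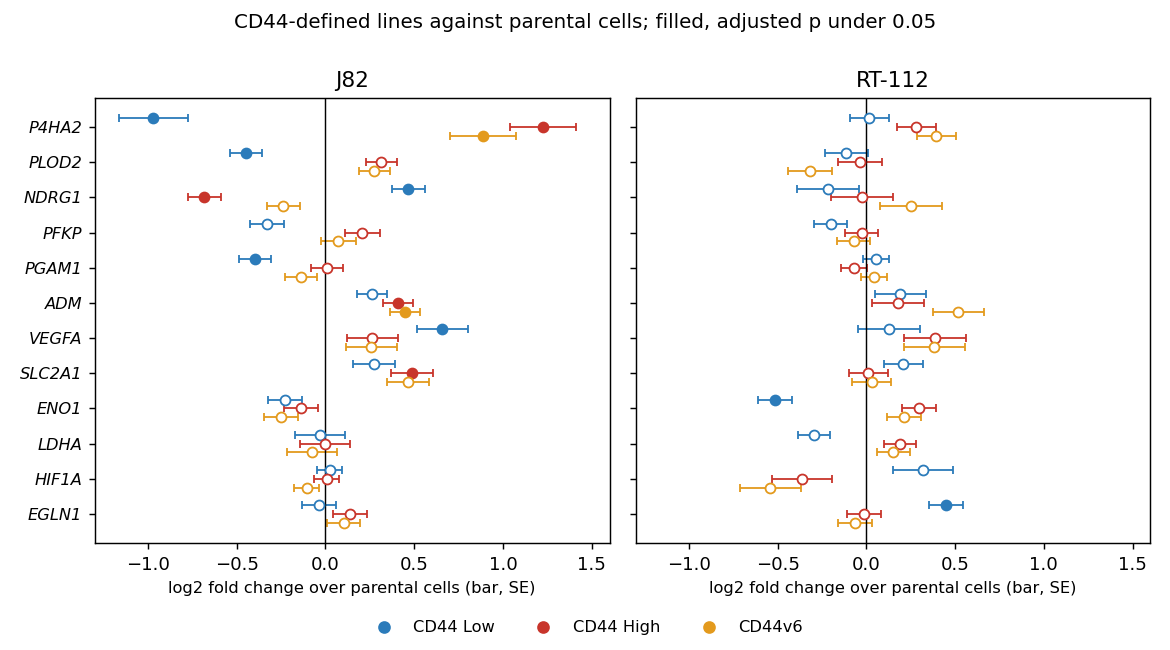
Log2 fold change of 12 members in CD44 Low, CD44 High and CD44v6 over the parental cells of J82 (left) and RT-112 (right); bars are standard errors, and filled points have an adjusted p under 0.05. P4HA2 in J82 lies at -0.97 in CD44 Low and at 1.23 and 0.89 in CD44 High and CD44v6, while in RT-112 the filled points are ENO1 and EGLN1 in CD44 Low.

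The parental cells of the 2 lines differed in far more members. Of 40 members tested, 34 were called, 17 higher and 17 lower in J82 (85.0% against 62.0% of all genes tested, 31% higher and 31% lower). The calls include SLC2A3, CA12 and ANGPTL4, too low for a test within RT-112, and ALDOC, too low within J82. These genes entered the fit only through the line where they are higher, so their calls add nothing to the levels given below. They are part of the 34 calls and of the 85.0%, and no share without them was computed. In J82 the 4 HIF subunits and sensors were all lower. Of the 9 HIF targets tested in the group of mitophagy, pH, secretion and stress genes, 7 were higher, but this counts CA12 and ANGPTL4. Leaving these out, BNIP3, BNIP3L, ADM, ANKRD37 and NDRG1 were higher in J82, and VEGFA and DDIT4 were lower. Members outside that group went both ways. HK2 and EGLN3, described above as HIF targets, were lower in J82, and PLOD2 and SLC16A3 were higher. The call of EGLN1 was lost without J82 parental replicate 3 (adjusted p = 0.0567). Those of PFKFB4 and PDK1 were lost in 5 and 4 of the 6 fits that left out 1 library (up to 0.127 and 0.0873): PFKFB4 held only without J82 parental replicate 2, and PDK1 only without J82 parental replicate 3 or RT-112 parental replicate 2. For HIF1A the RT-112 parental libraries were at 1036, 1051 and 1064 CPM and the J82 parental libraries at 405, 414 and 421 CPM (-1.35 (SE 0.14, adjusted p = 1.79e-08), J82 minus RT-112). EPAS1 was at 273, 293 and 236 CPM in RT-112 and 73, 58.1 and 74.6 CPM in J82 (-1.96 (SE 0.16, adjusted p = 5.46e-10)). As all groups of a line differ from the other line at once, these values describe 1 line against 1 line.

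Among the targets, the mitophagy receptor BNIP3 was at 58, 64.4 and 58.7 CPM in J82 and 7.37, 6.06 and 7.38 CPM in RT-112 (3.12 (SE 0.15, adjusted p = 7.30e-14)). ADM was at 37.2, 42.7 and 39.6 CPM in RT-112, below J82 by 1.67 (SE 0.13, adjusted p = 1.65e-10). The ankyrin repeat gene ANKRD37 was at 10.9, 10.1 and 8.70 CPM in J82 and 0.397, 1.10 and 0.697 CPM in RT-112 (3.72 (SE 0.32, adjusted p = 1.14e-09)). DDIT4, a stress-induced inhibitor of mTOR signalling, and VEGFA were the 2 genes lower in J82 in the group of mitophagy, pH, secretion and stress targets. DDIT4 was at 2.45, 3.95 and 3.04 CPM in J82 and 60.5, 83.8 and 78.4 CPM in RT-112 (-4.57 (SE 0.27, adjusted p = 2.07e-12)). VEGFA was at 102, 112 and 108 CPM in RT-112, above J82 (-1.51 (SE 0.18, adjusted p = 1.69e-07)). CA12, a carbonic anhydrase of the cell surface, was at 5.03, 3.78 and 5.92 CPM in J82 and at a count of 0 in all 3 RT-112 parental libraries, at least 99.7-fold higher in J82 (against a floor of 3 counts over the group). ANGPTL4, a secreted regulator of lipid metabolism, was at 0.267, 0.658 and 0.524 CPM in J82 and at 0 in RT-112, at least 9.81-fold higher. CA9, the hypoxia marker carbonic anhydrase, had a count of 0 in all 12 J82 libraries, which allows up to 0.0129 CPM over them (counting error only), and 0 to 13 counts in RT-112 libraries, too few for a test.

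The levels of related genes along glycolysis also differed between the parental cells. SLC2A3, the high-affinity glucose transporter of neurons, was at 22.2, 19.8 and 33.9 CPM in J82 and 0.227, 0.367 and 0 CPM in RT-112, too low there for a test within the line. SLC2A1 was at 105, 115 and 108 CPM in RT-112, above J82 (-1.80 (SE 0.13, adjusted p = 4.82e-11)), and HK2 was at 15.7, 15.8 and 15.4 CPM in J82 and 63.7, 53.6 and 51.8 CPM in RT-112 (-1.85 (SE 0.17, adjusted p = 4.79e-09)). SLC2A1 and SLC2A3 thus differed in opposite directions between the lines, and no library of one line reached those of the other. PFKL was at 64.7, 61.8 and 62.4 CPM in J82 and 252, 261 and 269 CPM in RT-112 (-2.05 (SE 0.08, adjusted p = 3.59e-15)), while PFKM was at 95.8, 104 and 97.9 and 38.8, 36 and 35.7 CPM (1.43 (SE 0.11, adjusted p = 1.84e-10)). ENO2, the neuronal enolase, was at 54, 49.4 and 55.2 CPM in J82 and 2.89, 4.45 and 3.99 CPM in RT-112 (3.79 (SE 0.18, adjusted p = 7.04e-14)). ALDOC, the brain aldolase, went the other way: it had a count of 0 in the 3 parental J82 libraries and 3.35, 2.71 and 3.11 CPM in RT-112, at least 60.9-fold higher. Of the 13 glycolytic enzymes, 9 were called, counting ALDOC, which entered the fit through RT-112. Among those not yet described, PFKP (0.63), PGK1 (0.55) and ENO1 (0.54) were higher and PGAM1 (-0.58) and GAPDH (-0.31) lower in J82, and these 5 calls held in all 6 fits that left out 1 library. GPI, ALDOA, TPI1 and PKM, and LDHA beyond them, were not called, with changes between -0.10 (PKM) and 0.13 (LDHA).

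For lactate export, SLC16A1 was at 188, 197 and 184 CPM in J82 and 35.7, 38.3 and 42 CPM in RT-112 (2.29 (SE 0.15, adjusted p = 1.25e-11)), and SLC16A3 was at 66.5, 71.5 and 70.8 and 26.6, 25 and 24.8 CPM (1.45 (SE 0.14, adjusted p = 1.08e-08)). Both transporters were thus higher in parental J82. The collagen enzymes split: PLOD2 was at 320.3, 373 and 337 CPM in J82 and 26.5, 30.3 and 32.2 CPM in RT-112 (3.53 (SE 0.12, adjusted p = 2.30e-16)), while P4HA2 was at 13.4, 12.8 and 17 and 49.3, 53 and 53.2 CPM (-1.85 (SE 0.16, adjusted p = 1.57e-09)). The parental libraries of the 2 lines did not overlap for any of these genes. The 14 called members whose levels in parental cells are not given here changed by 1.32 (NDRG1) or less in size.

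**Figure D5:**
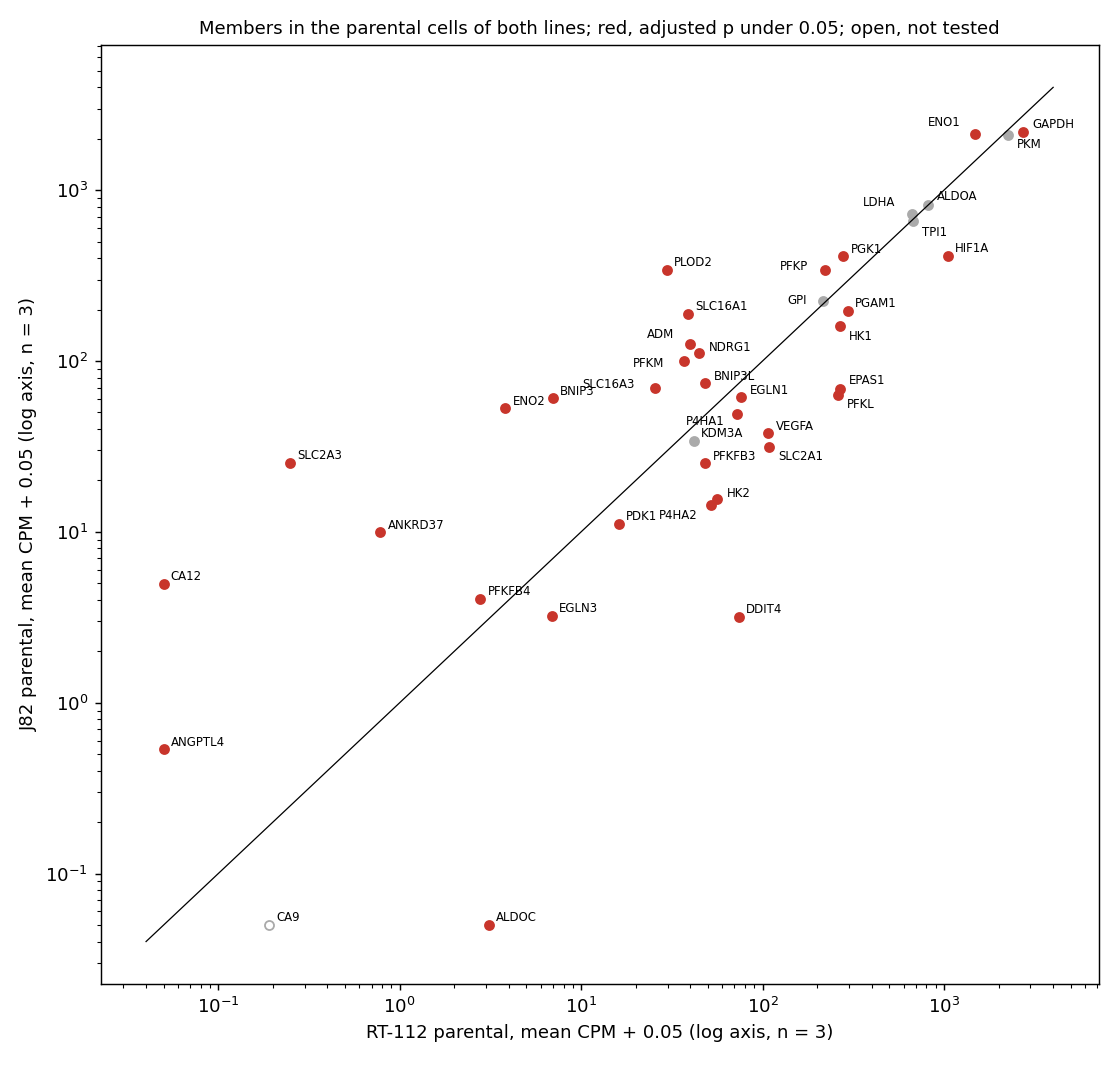
Mean level of the 41 members in parental RT-112 (x axis) and parental J82 (y axis), in CPM plus 0.05 on log axes, n = 3 each; the line marks equal levels, red an adjusted p under 0.05, and CA9 (open) was not tested. PLOD2, BNIP3, ENO2, SLC2A3 and CA12 lie well above the line and DDIT4 and ALDOC well below it, while the grey points of GPI, ALDOA, TPI1, PKM and LDHA lie close to it.

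Other genes of the same pathways, taken from 2 lists of 48 glucose metabolism genes and 45 HIF pathway genes, were read in CD44 High against CD44 Low. Over all genes tested, 8.83% were called higher and 6.9% lower in J82, and 9.01% and 7.02% in RT-112. Of the glucose metabolism genes, 4 were higher and 4 lower among 35 tested in J82, and 1 higher and 7 lower among 35 tested in RT-112. Of the HIF pathway genes, 4 were higher and 9 lower among 42 in J82, and 4 higher and 7 lower among 37 in RT-112. SLC16A7, a pyruvate and lactate importer, fell in both lines. It was at 71.5 ± 13.0 CPM (SD, n = 3) in J82 CD44 Low and 30.7 ± 5.63 CPM in CD44 High (-1.21, adjusted p = 0.000342). The RT-112 levels were 29.3 ± 8.95 and 11.2 ± 4.24 CPM (-1.35, adjusted p = 0.00663). STC2, a secreted glycoprotein induced by low oxygen, rose in both, from 114 ± 14.8 to 205 ± 17.7 CPM in J82 (0.85, adjusted p = 0.000217) and from 2.46 ± 0.430 to 4.87 ± 1.5 CPM in RT-112 (1.01, adjusted p = 0.0358). No other gene of the HIF list was called higher in both lines, whereas IGFBP3, HMOX1, PPP1R3B and KDM5B were called lower in both. Their changes ran from -0.68 to -0.42 in J82 and from -0.71 to -0.56 in RT-112. CITED2, which competes with HIF for its coactivator, fell in J82 (-1.01, adjusted p = 5.17e-05), from 226 ± 26.8 to 111 ± 7.26 CPM. It rose in RT-112 (0.64, adjusted p = 0.0249). PLOD1, another lysyl hydroxylase, rose in RT-112 from 32.6 ± 2.78 to 61.3 ± 11.6 CPM (0.94, adjusted p = 0.00212).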

How the data were processed

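Total RNA of 24 libraries was sequenced, per the labels' protocols by a service company after column extraction. The authors deposited 1 table of whole-number counts per gene symbol, with no normalization, whose column names all match sample titles (0 columns unmatched). The submitters' processing notes name HISAT2, StringTie and GRCh37 without versions or roles. The annotation and any strand setting are not given in the sources used here.

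The analysis used edgeR 4.0.16 under R 4.3.3: filterByExpr, TMM scaling and quasi-likelihood F-tests, two-sided, on the 12 libraries of a line with group as the only term (15951 genes tested in J82, 15645 in RT-112). Differences between lines, and between parental cells, came from 1 fit on all 24 libraries (17438 genes). P-values were adjusted by the Benjamini-Hochberg method over all genes tested. ALDOC and CA9 were not tested in J82, SLC2A3, CA9, CA12 and ANGPTL4 not in RT-112, and CA9 not in the 24-library fit. Standard errors are the size of the log2 fold change divided by the square root of F. CPM are counts divided by the TMM-scaled library total, on the usual scale. Ratios add 0.5 CPM to each gene. With 3 libraries a group, p-values rest on the spread between replicates, estimated jointly over all groups of a fit and not for the 2 groups compared. That spread differed between groups (biological coefficient of variation 0.0749 in J82 parental cells to 0.212 in J82 CD44v6).

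Alternatives were median-of-ratios and upper-quartile scaling, no filter, DESeq2 1.42.0, a replicate block, the 2 groups alone, and leaving out each library. The fit was tested on simulated data. Gene overlaps came from GENCODE 29 and promoters and gene order from RefSeq (GRCh38.p14). Both are another build than the counts, so members' coordinates are not given. The members, the lists and the rule for naming genes were chosen with earlier results of these data known. By that rule all members could be named, with values in every library for those called (at most 20 a comparison, by size of change), and at most 6 other pathway genes a line. The HIF pathway genes called lower in both lines were named beyond that rule.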

Additional observations from a re-analysis of the deposited data

Results flagged for a closer look

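A test of the difference between the lines (J82 change minus RT-112 change, on the log2 scale) was called for these members.

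For CD44 High against CD44 Low the difference was 1.96 for P4HA2, 0.82 for PFKFB3, 0.71 for PLOD2, 0.70 for HIF1A, 0.67 for EGLN1, 0.56 for PGAM1, 0.49 for PFKL and 0.45 for HK1. It was -0.69 for ENO1 and -1.31 for NDRG1. With 1 library left out, HK1 lost the call without J82 CD44 Low replicate 2 or RT-112 CD44 High replicate 1, HIF1A without replicate 1 of RT-112 CD44 Low or CD44 High, and PFKFB3 without RT-112 CD44 High replicate 1 (adjusted p up to 0.0564). For CD44v6 against CD44 Low, which shares the CD44 Low libraries, it was 1.47 for P4HA2, 0.92 for PLOD2, 0.86 for PFKFB3, 0.72 for HIF1A, 0.64 for EGLN1, -0.76 for ENO1 and -1.18 for NDRG1. There HIF1A lost the call without J82 CD44 Low replicate 2 or RT-112 CD44v6 replicate 3 (up to 0.0765), and PFKFB3 without the latter.

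For CD44 Low against parental cells the difference was -1.02 for P4HA2 and -0.49 for PGAM1. For CD44 High against parental cells ALDOC had an adjusted p = 0.0448. As ALDOC had no count in parental J82, no fold is given for it, and as it was tested only through the RT-112 libraries, no difference is read from it. The neighbours of ENO1 and EGLN1 on chromosome 1 had medians of 0.31 and -0.22 for the RT-112 line, those of HK1 a median of 0.23 for J82, when CD44 High was set against CD44 Low, and their part was not tested.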

How the results depend on the processing

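Of 1218 values of called members under alternatives, 1080 kept the call, 138 lost it and 0 changed direction. These pool all comparisons, with the 34 members called between the parental cells of the 2 lines. There only EGLN1, PFKFB4 and PDK1 lost a call in any fit, and calls in the other comparisons were lost more often. The counts of called members that moved by over 1.5 times did so without a cause being tested. On the 2 groups alone, the count went from 5 to 8 in J82 CD44 Low against parental cells, from 4 to 11 in CD44 High, from 2 to 0 in CD44v6, and from 6 to 3 in J82 CD44v6 against CD44 Low. In RT-112 it went from 2 to 4 in CD44 Low and from 0 to 4 in CD44v6 against parental cells. DESeq2 gave 8 for J82 CD44v6 and 2 for RT-112 CD44v6 against parental cells, and 1 for J82 CD44v6 against CD44 High.

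The replicate numbers were not shown to pair the samples. The correlation of same-numbered libraries was over 0.1 in all 3 pairs only for J82 CD44v6 against CD44 High (0.113, 0.109 and 0.252), where the block also gave 0 calls. It was 0.038, 0.113 and 0.23 for J82 CD44 High against CD44 Low, where the block gave 13 calls. The block gave 6 in J82 CD44v6 against parental cells, 1 in RT-112 CD44 Low against parental cells, and 1 of the difference between lines there. That difference gave 1 with upper-quartile scaling and 0 without a filter.

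With each library left out, the count ran from 7 to 12 in J82 CD44 High against CD44 Low, with 7 without replicate 1 or 2 of CD44 High. Against parental cells it ran from 2 to 5 in J82 CD44 Low (2 without any 1 parental library, 3 without CD44 Low replicate 1) and from 2 to 3 in J82 CD44 High (2 without parental replicate 1 or 2 or CD44 High replicate 2 or 3). It ran from 0 to 5 in J82 CD44v6 (0 without parental replicate 1 or 2, 1 without parental replicate 3 or CD44v6 replicate 1, 5 without CD44v6 replicate 3) and from 0 to 2 in RT-112 CD44 Low (0 without parental replicate 1 or 2 or CD44 Low replicate 1, 1 without CD44 Low replicate 2). Of the differences between lines, it ran from 0 to 2 in CD44 Low against parental cells and from 5 to 11 in CD44v6 against CD44 Low (11 without J82 CD44v6 replicate 2). For CD44 High against CD44 Low of RT-112 it was 4 to 8, with 8 without replicate 2 or 3 of CD44 High. Depth limits the genes under about 1 CPM.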

Other observations

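The neighbours of members that did not pass the test in RT-112 were read beside the 9.01% of all genes called higher and 7.02% called lower in CD44 High against CD44 Low. Around PLOD2 on chromosome 3, 15 of 20 neighbours were below 0 in CD44 High against CD44 Low, 5 of them called lower, with a median of -0.38, while PLOD2 was at 0.08. In CD44v6 against CD44 Low 9 were called lower, with a median of -0.37. Around SLC16A3 on chromosome 17, 19 of 20 neighbours were above 0 in CD44 High against CD44 Low, 3 of them called higher, with a median of 0.29, while SLC16A3 was at -0.05. In CD44v6 against CD44 Low 17 were above 0 and 1 was called, with a median of 0.25.

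The balance of the 2 mitophagy receptors differed between the lines in every group. The log2 ratio of BNIP3 to BNIP3L was -0.30 ± 0.127 (SD, n = 3) in J82 parental cells and -2.71 ± 0.271 in those of RT-112. In the other J82 groups the means lay from -0.66 to -0.25 and in the other RT-112 groups from -3.10 to -2.34. The ratio of EPAS1 to HIF1A was -1.98 ± 0.170 in parental RT-112 and -1.53 ± 0.224 in RT-112 CD44v6. These ratios were not tested.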
